A study of Mus musculus with 7 samples.

Results

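The 35 genes described here are markers of astrocytes and of radial glia, taken from a given list of symbols and found among 52636 genes in the count files. RNA-seq was run on the dorsal midbrain of 7 neonatal mice to compare gene expression with and without *Brn3b* (*Pou4f2*), a POU-domain transcription factor of midbrain neurons. The paper states that its studies used both sexes, and the labels do not give the sex of each mouse. The 3 controls were *Brn3b* flox/+ mice with *En1-Cre* (A2 at P4, A4 at P3 and A6 at P4), and the 4 cKO mice were *Brn3b* flox/− with *En1-Cre* (B1 at P4, B7 at P2, B8 at P4 and B9 at P2). Every mouse therefore carried 1 *En1-Cre* allele, which is active in the midbrain and hindbrain, and 1 floxed *Brn3b* allele, which expresses human placental alkaline phosphatase once recombined. Both P2 mice were cKO and the P3 mouse was a control, so age and genotype cannot be told apart in full. Of the controls, A2 had 23588248 counts assigned to genes, A4 had 40411968 and A6 had 26577011. Of the cKO mice, B1 had 28116582, B8 had 39251318, and the P2 libraries B7 and B9 were the deepest, with 67792192 and 87572085. All 35 genes had at least 108 counts in every library and all were tested.

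Radial glia are the neural stem cells of the embryonic brain: they line the ventricle, span the wall of the neural tube and give rise to neurons and then to glia. Around birth many of them turn into astrocytes, which take up glutamate and potassium, wrap blood vessels with endfeet, couple through gap junctions and secrete lipoproteins and matrix. Notch signalling through Hes factors, BMP signalling through Id factors and SOX9 keep radial glia and early astrocytes in their state.

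*Brn3b* itself was measured first, as a check of the labels. *Pou4f2* had 46.5, 47.4 and 45.8 CPM in controls A2, A4 and A6 and 9.65, 9.67, 10.6 and 11.6 CPM in cKO B1, B7, B8 and B9 (CPM are counts relative to the normalized size of each library). Every cKO library lay far below every control, B8 included, and the log2 fold change was −2.16 (SE 0.13, edgeR adjusted p = 0.000566). An exact two-sided permutation test over the mice gave p = 0.0286, the smallest that 35 assignments of 3 and 4 mice allow. Dorsal midbrain genes picked after the data were seen were present in all libraries: *Pax7* had between 57.7 CPM in A2 and 100.3 CPM in B9, and *Tfap2b* lay between 520.0 and 944 CPM.

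Among the cKO libraries, B8 stood apart. On the first principal component of all genes tested, which held 60.1% of the variance, the controls lay at −33.3 (A2), −81.2 (A4) and −42.0 (A6), B8 at −42.2, and the other cKO libraries at 49.4 (B1), 78.7 (B7) and 70.6 (B9). B8 was nearer to the control mean than to the mean of the other cKO mice for 32 of the 35 genes, against 80.0% of all genes tested, and within the range of the controls for 23 of the 35, against 61.8%. Its age (P4), depth and share of reads not assigned to genes (37.5%, against 33.1% to 38.2% in the controls, 37.9% in B1, 31.8% in B7 and 31.0% in B9) were inside the range of the other mice. In 2 other shares B8 lay with the controls. Reads aligned to more than 1 place were 10.9%, against 10.6% to 11.1% in the controls, 9.76% in B1, 8.14% in B7 and 8.33% in B9. The mitochondrial share was 4.61%, against 4.59% to 4.77% in the controls, 4.30% in B1, 4.01% in B7 and 4.29% in B9. The part of these shares in the position of B8 was not tested. Results are given with and without B8. B8 was singled out after its expression had been seen to resemble the controls, so calls made without it describe the 6 other libraries and are not a second test of genotype.

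None of the 35 genes passed the edgeR test between cKO and control over all 7 mice. edgeR called 0 higher and 0 lower at an adjusted p under 0.05, where 0.0% of the 21817 genes tested were called higher and 0.00458% lower, the 1 called gene being *Brn3b*. At an unadjusted p under 0.05 there were 13 of the 35 (6 higher, 7 lower), beside 30.4% of all genes tested. DESeq2 called 4 of the 35 higher (*Slc1a2*, *Slc4a4*, *Ptprz1* and *Sparcl1*), or 11.4% against 7.41% of its genes, and 0 lower against 3.04%, with 14 of the 35 at an unadjusted p under 0.05, beside 35.3% of its genes. limma-voom, whose quality weights set B8 to 0.167, called 8 higher, against 24.2% of its genes, and 13 lower, against 24.3%. Without B8 edgeR called 8 and 13. The median log2 fold change of the 35 was −0.14, against 0.0025 over all genes tested, and single values ran from −1.02 (*Hes5*) to 0.82 (*Ptprz1*). In bulk tissue, fewer cells of a type and less RNA per cell cannot be told apart. The p-values measure the spread between these mice.

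Without B8 the 35 genes divided, whereas leaving out any other single mouse gave 0 calls in either direction with edgeR. edgeR called 8 of them higher in cKO (*Slc1a2*, *Slc1a3*, *Aqp4*, *Nes*, *Slc4a4*, *Ptprz1*, *Tnc* and *Sparcl1*), 22.9% against 23.7% of 21122 genes tested. It called 13 lower (*Fabp7*, *Sox9*, *Aldoc*, *Apoe*, *Clu*, *Agt*, *Mlc1*, *S100b*, *Hes5*, *Id3*, *Ntsr2*, *Bcan* and *Cldn10*), 37.1% against 23.1%. The share called higher was thus near that of all genes, and the share called lower was above it. The genes were listed with earlier results of these data known, and B8 was left out after its values were seen. These shares are therefore a description. DESeq2 without B8 called the same 8 and 13 genes, against 20.6% and 19.3% of its genes. Over all 7 mice, the cKO and control values did not overlap for 2 genes with every cKO above (*Aqp4* and *Sparcl1*), against 6.03% of all genes, and for 1 with every cKO below (*Atp1b2*), against 8.01%. Without B8 these numbers were 7 above, against 28.2%, and 14 below, against 28.0%.

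**Figure D1:**
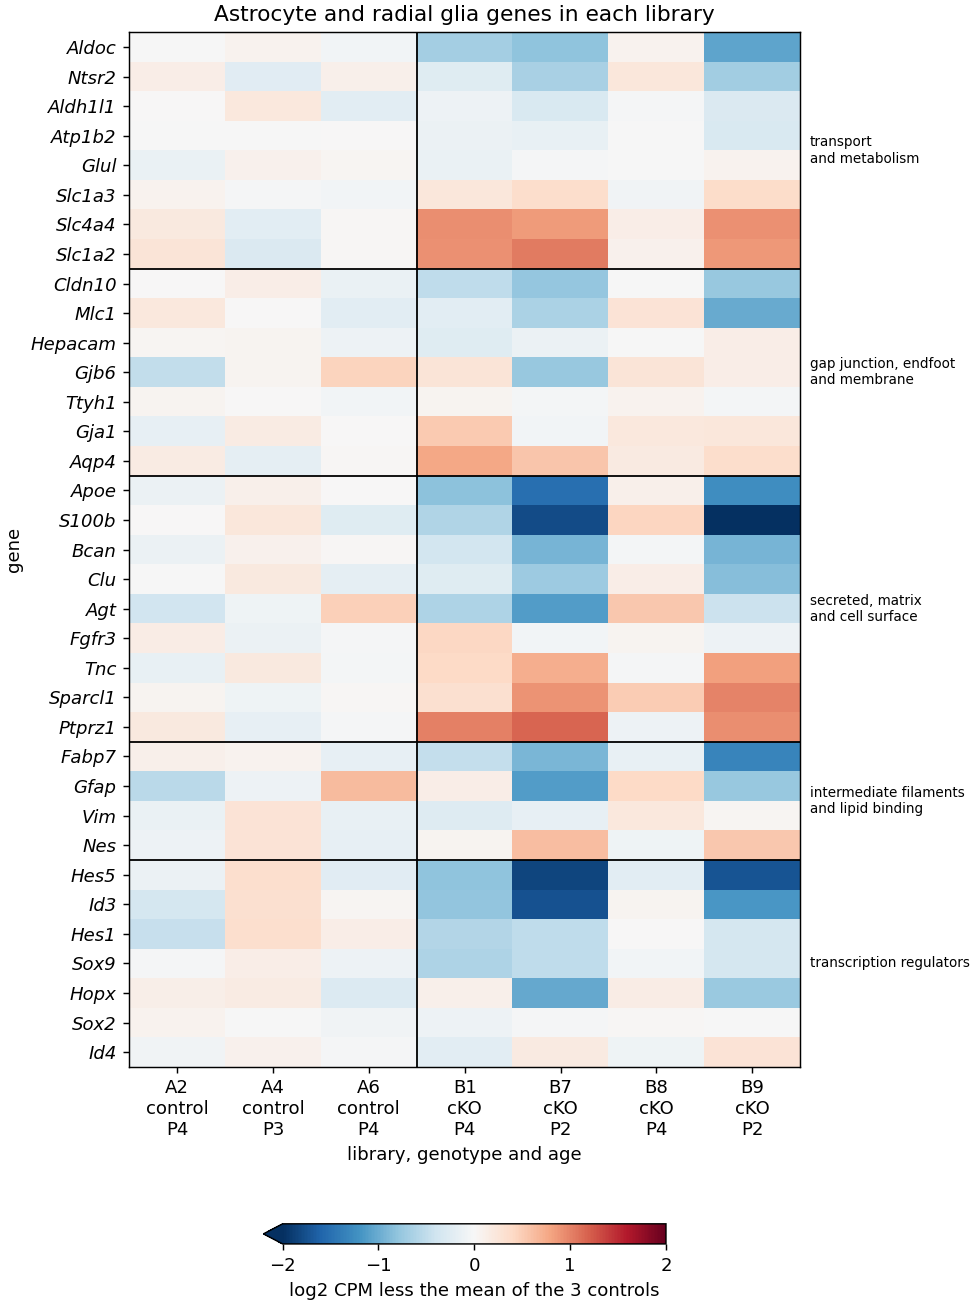
Heat map of log2 CPM less the mean of the 3 controls for the 35 genes (rows, grouped by role and ordered by fold change) in the 7 libraries (columns, with genotype and age). B1, B7 and B9 share blocks of higher and lower genes, B8 resembles the controls, and the color scale ends at −2.

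Among the 8 genes of transport and metabolism, the glutamate and bicarbonate carriers had the largest positive differences. *Slc1a2*, the main glutamate transporter of mature astrocytes (chr2:102658659-102790784, GRCm38), had 218, 149 and 186 CPM in controls A2, A4 and A6 and 343, 375, 193 and 333 CPM in cKO B1, B7, B8 and B9. B1, B7 and B9 lay above every control, and B8 lay among the controls. Its log2 fold change was 0.76 (SE 0.23, edgeR adjusted p = 0.138) over all mice and 0.93 (SE 0.13, edgeR adjusted p = 0.000209) without B8. *Slc4a4* had 128, 96.3 and 113 CPM in controls A2, A4 and A6 and 213, 203, 122 and 212 CPM in cKO B1, B7, B8 and B9. This sodium bicarbonate cotransporter (chr5:88886818-89239653) showed the same arrangement, with B8 inside the control range. Its log2 fold change was 0.73 (SE 0.21, edgeR adjusted p = 0.138) over all mice and 0.89 (SE 0.12, edgeR adjusted p = 0.000135) without B8. With offsets for GC content and exon length and without B8, the values fell to 0.26 for *Slc1a2* and 0.29 for *Slc4a4*, and neither was called. *Slc1a3*, the glutamate transporter that radial glia already carry, had a smaller difference of 0.23 (SE 0.14, edgeR adjusted p = 0.272), or 0.31 (SE 0.10, edgeR adjusted p = 0.02) without B8. With the same offsets *Slc1a3* changed sign, to −0.18 over all mice and −0.22 without B8, and was not called. Further pairs of values with the offsets are given in this order.

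The glycolytic enzyme *Aldoc* went the other way. *Aldoc* had 155, 163 and 151 CPM in controls A2, A4 and A6 and 97.6, 89.3, 164 and 75.3 CPM in cKO B1, B7, B8 and B9. B8 was level with the highest control and the other cKO libraries lay below all controls. The log2 fold change of *Aldoc* was −0.55 (SE 0.24, edgeR adjusted p = 0.156) over all mice and −0.84 (SE 0.12, edgeR adjusted p = 0.000165) without B8, or −0.45 and −0.65 with the offsets. *Ntsr2*, a neurotensin receptor of astrocytes, was at −0.30 over all mice and −0.54 (edgeR adjusted p = 0.0279) without B8, and with the offsets at 0.0018 and −0.061, the first with the other sign and neither called. Glutamine synthetase (*Glul*) held between 227 and 266 CPM in all 7 libraries, with a log2 fold change of −0.028 (SE 0.12, edgeR adjusted p = 0.886). The folate enzyme *Aldh1l1* was at −0.18 (SE 0.14, edgeR adjusted p = 0.391), or −0.065 with the offsets. *Atp1b2*, the β2 subunit of the sodium pump, had 409, 408 and 411 CPM in controls A2, A4 and A6 and 377, 371, 408 and 332 CPM in cKO B1, B7, B8 and B9. Every cKO value of *Atp1b2* lay below every control, in B8 by under 1 CPM, and its log2 fold change was −0.14 (SE 0.11, edgeR adjusted p = 0.418). Exons on the opposite strand overlap *Slc1a2*, *Aldh1l1* and *Glul*, and the strand option of the counting was not stated, so their counts may hold reads of those neighbours. *Gm45901* and *Mir8114* share exon sequence with *Aldh1l1* and *Glul* on the same strand, which makes those 2 counts uncertain.

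Of the 7 genes of gap junctions, endfeet and the membrane, 3 had a log2 fold change above 0 and 4 below 0 over all mice. *Aqp4*, the water channel of the astrocyte endfoot (chr18:15389496-15410982), had 110.2, 86.8 and 101 CPM in controls A2, A4 and A6 and 169, 145, 112 and 126 CPM in cKO B1, B7, B8 and B9. All cKO libraries were above all controls, B8 by the smallest margin. Its log2 fold change was 0.48 (SE 0.17, edgeR adjusted p = 0.138) over all mice and 0.56 (SE 0.13, edgeR adjusted p = 0.00421) without B8, and with offsets for GC content and exon length it fell to 0.20 and 0.21 and was not called. *Cldn10*, a claudin of the astrocyte membrane, had 21.1, 23.0 and 19.1 CPM in controls A2, A4 and A6 and 14.7, 12.2, 21.0 and 12.4 CPM in cKO B1, B7, B8 and B9. B1, B7 and B9 were below the controls and B8 was among them, and the log2 fold change was −0.49 (SE 0.21, edgeR adjusted p = 0.155) over all mice and −0.69 (SE 0.14, edgeR adjusted p = 0.00186) without B8, or −0.49 and −0.69 with the offsets. For *Mlc1*, an endfoot membrane protein, it was −0.33 (SE 0.27, edgeR adjusted p = 0.407) over all mice and −0.60 (SE 0.18, edgeR adjusted p = 0.0169) without B8, or −0.25 and −0.44 with the offsets, where it was not called. The connexins did not pass either test, with *Gja1* (connexin 43) at 0.24, or −0.21 with the offsets, and *Gjb6* (connexin 30) at −0.023 over all mice. *Hepacam*, the adhesion partner of MLC1, was at −0.054, and *Ttyh1*, of the tweety family of membrane proteins, at 0.0091 with between 382 and 420.1 CPM in all libraries.

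Secreted, matrix and cell surface genes held the widest range. *Ptprz1* had 859, 665 and 734 CPM in controls A2, A4 and A6 and 1505, 1676, 699 and 1419 CPM in cKO B1, B7, B8 and B9. In this receptor phosphatase of radial glia and glial progenitors (chr6:22875502-23052916), B8 was within the controls and the other cKO libraries were far above them. The log2 fold change was 0.82 (SE 0.26, edgeR adjusted p = 0.138) over all mice and 1.02 (SE 0.12, edgeR adjusted p = 8.89e-05) without B8, and with offsets for GC content and exon length and without B8 it fell to 0.22 and was not called. *Sparcl1* had 335, 304 and 328 CPM in controls A2, A4 and A6 and 402, 600.0, 456 and 640.2 CPM in cKO B1, B7, B8 and B9. For this secreted promoter of synapse formation (chr5:104079111-104113733), all cKO libraries, B8 included, exceeded all controls, and the P2 libraries B7 and B9 were the highest. The log2 fold change was 0.70 (SE 0.17, edgeR adjusted p = 0.138) over all mice and 0.76 (SE 0.15, edgeR adjusted p = 0.0015) without B8, or 0.72 and 0.79 with the offsets. *Tnc* had 195, 248 and 210.5 CPM in controls A2, A4 and A6 and 286, 360.4, 214 and 381 CPM in cKO B1, B7, B8 and B9. For tenascin C, an extracellular matrix protein, B1, B7 and B9 were above every control and B8 among them. Its log2 fold change was 0.51 (SE 0.20, edgeR adjusted p = 0.142) over all mice and 0.65 (SE 0.13, edgeR adjusted p = 0.00167) without B8, or 0.31 and 0.42 with the offsets.

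The other secreted genes lay on the opposite side. *Apoe* had 1121, 1304 and 1228 CPM in controls A2, A4 and A6 and 687, 429, 1301 and 512 CPM in cKO B1, B7, B8 and B9. This lipid carrier (chr7:19696109-19699188) was lowest in the P2 libraries, low in B1 and within the control range in B8. The log2 fold change of *Apoe* was −0.73 (SE 0.33, edgeR adjusted p = 0.164) over all mice and −1.17 (SE 0.15, edgeR adjusted p = 0.000131) without B8, or −0.36 and −0.53 with the offsets. *S100b* had 16.4, 19.0 and 13.8 CPM in controls A2, A4 and A6 and 10.7, 4.70, 21.9 and 3.03 CPM in cKO B1, B7, B8 and B9. The calcium-binding protein gene *S100b* was thus highest of all in B8 and lowest in B9 and B7, and its log2 fold change was −0.71 (SE 0.56, edgeR adjusted p = 0.385) over all mice and −1.47 (SE 0.35, edgeR adjusted p = 0.0047) without B8, or −0.69 and −1.35 with the offsets. *Bcan* had 292, 338 and 324 CPM in controls A2, A4 and A6 and 247, 167, 310.4 and 167 CPM in cKO B1, B7, B8 and B9. For this proteoglycan, brevican, the log2 fold change was −0.52 (SE 0.22, edgeR adjusted p = 0.153) over all mice and −0.72 (SE 0.15, edgeR adjusted p = 0.00189) without B8, or −0.24 and −0.30 with the offsets. Clusterin (*Clu*) was at −0.38 over all mice and −0.59 without B8, and angiotensinogen (*Agt*) at −0.32 and −0.74. Leaving out single mice moved *Agt* from −0.048 (without A6) to −0.74 (without B8). With the offsets *Clu* was at −0.24 and −0.36 and *Agt* at −0.022 and −0.22, where *Agt* was not called. The FGF receptor gene *Fgfr3* was at 0.089 (SE 0.16, edgeR adjusted p = 0.714).

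Of the intermediate filament and lipid-binding genes, *Fabp7* had the largest difference. *Fabp7* had 1545, 1509 and 1277 CPM in controls A2, A4 and A6 and 1035, 761, 1293 and 576 CPM in cKO B1, B7, B8 and B9. This fatty acid-binding protein of radial glia (chr10:57784881-57788450) was lower than every control in B1, B7 and B9, while B8 lay at the lower end of the controls. Its log2 fold change was −0.66 (SE 0.24, edgeR adjusted p = 0.138) over all mice and −0.87 (SE 0.18, edgeR adjusted p = 0.00164) without B8, or −0.67 and −0.87 with the offsets. *Gfap* had 28.2, 38.3 and 64.0 CPM in controls A2, A4 and A6 and 45.2, 18.9, 53.9 and 24.1 CPM in cKO B1, B7, B8 and B9. The controls themselves spread widely for *Gfap*, the filament of mature astrocytes, and the groups overlapped, at −0.29 (SE 0.38, edgeR adjusted p = 0.612). Vimentin (*Vim*) was at −0.048 (SE 0.16, edgeR adjusted p = 0.852). Nestin (*Nes*), the filament of neural stem cells, had 47.5, 61.5 and 45.8 CPM in controls A2, A4 and A6 and 53.4, 78.4, 48.0 and 74.0 CPM in cKO B1, B7, B8 and B9. The P2 libraries were the highest, and the log2 fold change was 0.30 (SE 0.20, edgeR adjusted p = 0.322) over all mice and 0.41 (SE 0.16, edgeR adjusted p = 0.0498) without B8, or 0.37 and 0.50 with the offsets. With age as a covariate *Nes* was at 0.0745 over all mice (edgeR adjusted p = 0.711).

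The transcription regulators lay mostly below 0, 6 of 7 over all mice. *Hes5* had 28.5, 39.1 and 26.4 CPM in controls A2, A4 and A6 and 17.6, 8.60, 26.7 and 9.32 CPM in cKO B1, B7, B8 and B9. *Hes5*, a Notch target that keeps radial glia undifferentiated (chr4:154960923-154962371), was lowest in B7 and B9, intermediate in B1 and within the controls in B8. Its log2 fold change was −1.02 (SE 0.37, edgeR adjusted p = 0.138) over all mice and −1.43 (SE 0.25, edgeR adjusted p = 0.000681) without B8, or −0.60 and −0.71 with the offsets. *Id3* had 29.2, 46.5 and 38.4 CPM in controls A2, A4 and A6 and 21.6, 11.1, 38.6 and 16.7 CPM in cKO B1, B7, B8 and B9. *Id3*, a BMP target that blocks bHLH factors (chr4:136143497-136145755), followed the same order among the cKO libraries. Its log2 fold change was −0.79 (SE 0.36, edgeR adjusted p = 0.169) over all mice and −1.22 (SE 0.22, edgeR adjusted p = 0.000931) without B8, or −0.50 and −0.70 with the offsets. *Sox9* had 61.4, 68.4 and 58.6 CPM in controls A2, A4 and A6 and 41.0, 43.9, 60.4 and 49.1 CPM in cKO B1, B7, B8 and B9. For *Sox9*, which drives gliogenesis, the log2 fold change was −0.37 (SE 0.16, edgeR adjusted p = 0.154) over all mice and −0.49 (SE 0.12, edgeR adjusted p = 0.00403) without B8, or −0.46 and −0.60 with the offsets. *Hes1* was at −0.38 over all mice and −0.53 without B8, or −0.0034 and 0.019 with the offsets. *Hopx* was at −0.32 and −0.52, or −0.28 and −0.44 with the offsets, and at −0.12 without B7. Neither gene was called without B8. *Sox2*, the stem cell factor, held between 53.4 and 60.4 CPM in all 7 libraries (log2 fold change −0.026), and *Id4* was at 0.051. *Hes5*, *Hopx*, *Id4*, *Fgfr3*, *Ttyh1* and *Tnc* also have exons of other genes on the opposite strand.

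**Figure D2:**
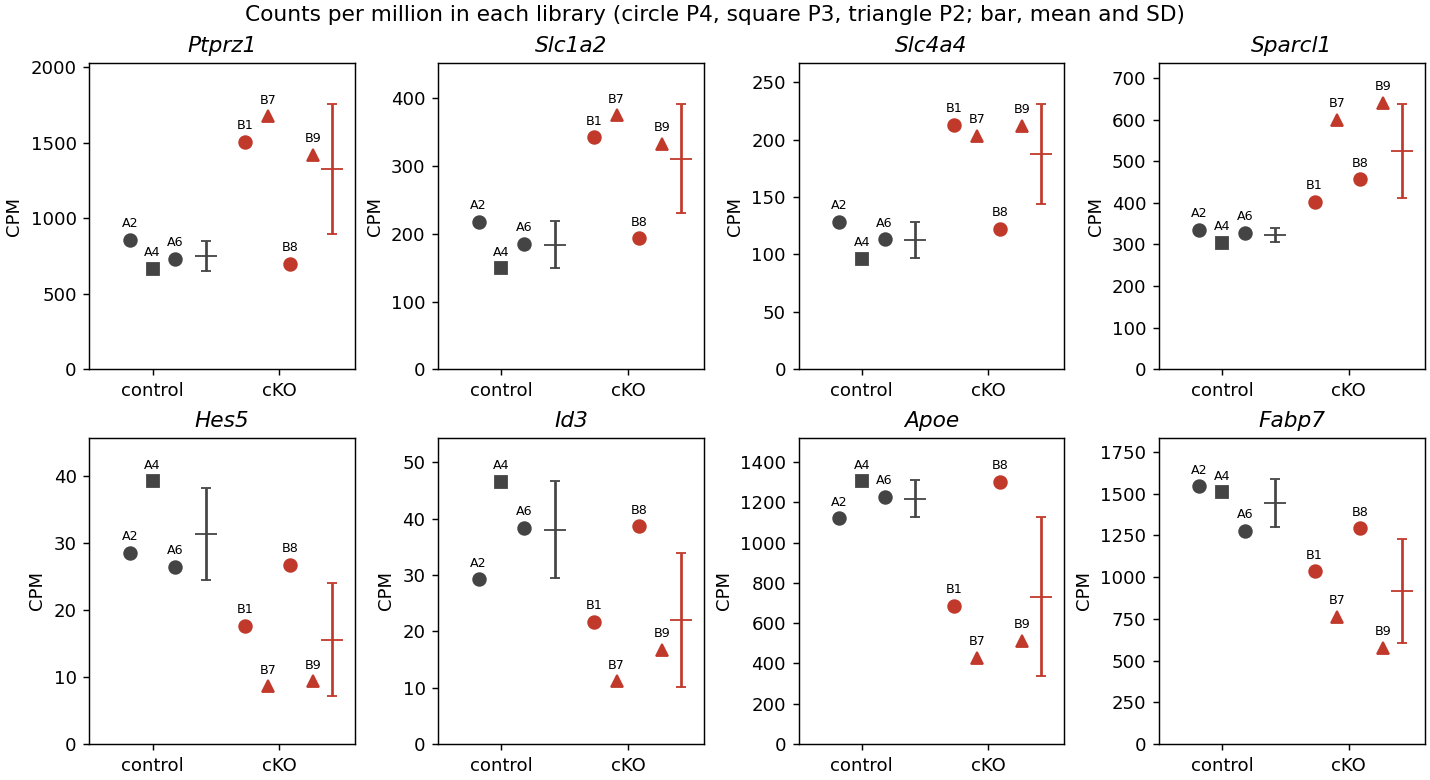
CPM of 8 genes in each of the 3 control and 4 cKO libraries, with the library name, the age as symbol and the mean and SD of each group. B8 lies within or near the control range in 7 panels and above all controls for *Sparcl1* (456 CPM).

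Because values of different genes can be compared only per length, CPM were divided by the exon length in kb. In the controls *Fabp7* was first at 1155 ± 116 CPM per kb (SD, n = 3), followed by *Apoe* at 570 ± 42.9, *Sparcl1* at 109.9 ± 5.54 and *Atp1b2* at 100.2 ± 0.320. *Sparcl1* and *Atp1b2* differed by more than their spread, and *Atp1b2* and *Id4* (89.2 ± 5.02) did too. The lowest were *Hopx* at 3.20 ± 0.518, *Ntsr2* at 3.94 ± 0.524, *Hes1* at 4.01 ± 1.07 and *Gjb6* at 4.03 ± 1.26, and *Hopx* and *Ntsr2* lay within the SD of the other two. In the cKO mice *Fabp7* was at 733 ± 251 and *Apoe* at 342 ± 184 (SD, n = 4), still the first and second.

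The fold changes ran with exon length. Over the 35 genes, Spearman's rho between the edgeR log2 fold change over all mice and the log2 exon length was 0.773, against 0.579 over 15513 protein-coding genes tested, and with GC content it was −0.415, against −0.451. These are correlations across genes, which share libraries and are not independent replicates. All 10 genes of at least 6 kb, a length chosen after the data were seen, had a log2 fold change above 0, and 2 of the 25 shorter ones did (*Id4* and *Sparcl1*), beside 80.7% and 36.5% of the protein-coding genes. *Ptprz1* (14245 bases), *Slc1a2* (13133) and *Slc4a4* (10815) are the longest, and *Fabp7* (1250), *Hes5* (1363) and *S100b* (1484) the shortest. With each library's smooth trend on GC content and length taken out, rho with length was 0.566 for the 35 genes and 0.193 for protein-coding genes, *Ptprz1* went to 0.14, *Slc1a2* to 0.21 and *Slc4a4* to 0.25, *Slc1a3* and *Gja1* changed sign to −0.18 and −0.21, and *Sparcl1* (0.72), *Fabp7* (−0.67) and *S100b* (−0.69) moved by under 0.1. edgeR called 0 genes of the 35 higher and 0 lower after this correction, against 0.0% and 0.00458% of all genes tested, 6 of the 35 having an unadjusted p under 0.05, beside 26.2% of all genes. Whether length and GC content had a part in the remaining differences was not tested.

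With the same correction and without B8, edgeR called 3 of the 35 higher (*Nes*, *Tnc* and *Sparcl1*), 8.57% against 14.2% of all genes tested, and 10 lower (*Fabp7*, *Sox9*, *Aldoc*, *Apoe*, *Clu*, *S100b*, *Hes5*, *Id3*, *Bcan* and *Cldn10*), 28.6% against 19.1%. The calls of *Slc1a2*, *Slc1a3*, *Aqp4*, *Slc4a4* and *Ptprz1* as higher were lost, and those of *Agt* (−0.22), *Ntsr2* (−0.061) and *Mlc1* (−0.44) as lower. *Ptprz1* was at 0.22 (SE 0.10, edgeR adjusted p = 0.108), *Slc1a2* at 0.26 (SE 0.11, edgeR adjusted p = 0.0909) and *Slc4a4* at 0.29 (SE 0.11, edgeR adjusted p = 0.0549). *Hes5* was at −0.71 (SE 0.16, edgeR adjusted p = 0.00566), *Apoe* at −0.53 (SE 0.10, edgeR adjusted p = 0.00185) and *Fabp7* at −0.87 (SE 0.17, edgeR adjusted p = 0.0018). The 3 genes kept as higher and the 10 kept as lower were all among the 8 and 13 called without the correction.

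**Figure D3:**
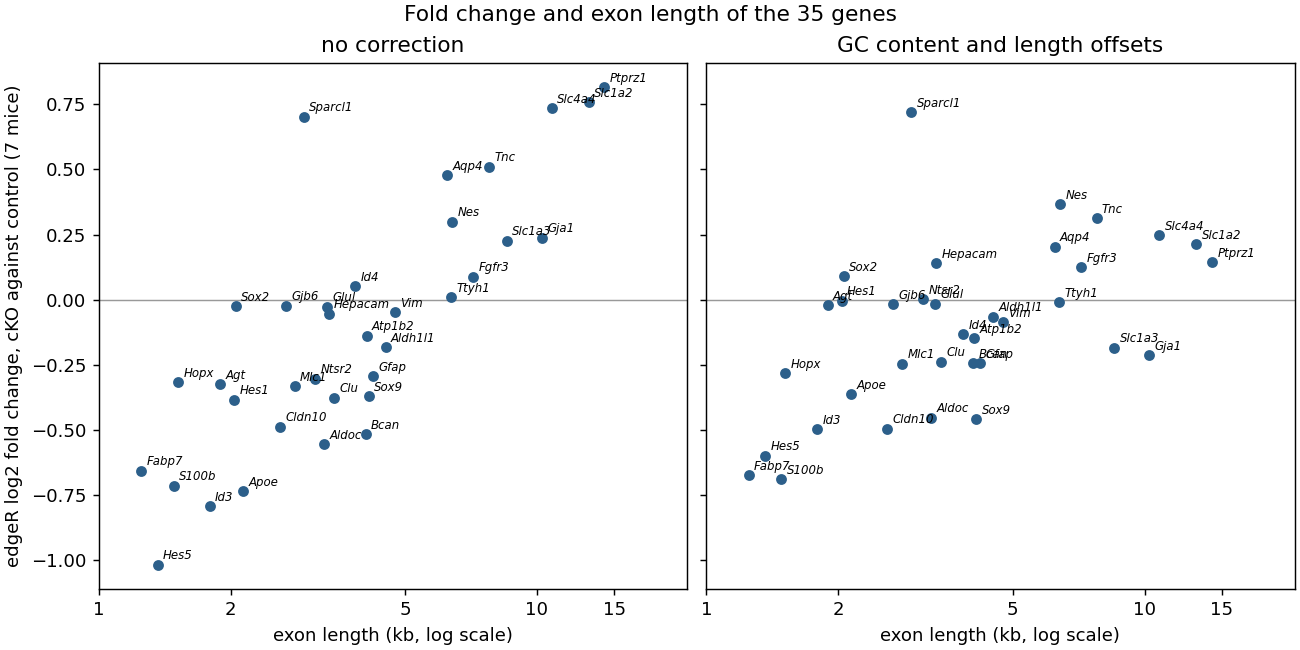
The edgeR log2 fold change (cKO against control, 7 mice) of the 35 genes against exon length in kb on a log scale, without correction (left) and with offsets for GC content and length (right). *Sparcl1* lies at 0.70 on the left and 0.72 on the right, while *Ptprz1* goes from 0.82 to 0.14.

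Age was compared within the cKO mice, 2 at P2 (B7, B9) and 2 at P4 (B1, B8). edgeR called 0 of the 35 higher and 0 lower at P2, where 0.0% of the 22725 genes tested were called in either direction, with 15 of the 35 at an unadjusted p under 0.05 (3 higher, 12 lower), beside 15.7% of all genes. DESeq2 called 0 higher, against 0.241% of its genes, and 4 lower, against 1.49%. The median log2 difference of P2 less P4 was −0.24 for the 35 genes and −0.012 for all genes tested. *S100b* had the largest, at −2.08 (SE 0.40, edgeR adjusted p = 0.298), followed by *Hes5* at −1.31, *Gfap* at −1.21, *Id3* at −1.12 and *Apoe* at −1.08. Without B8, against B1 alone, *S100b* was at −1.46, *Hes5* at −0.97, *Gfap* at −1.06, *Id3* at −0.63 and *Apoe* at −0.54. The 16 maturing astrocyte genes of the list (*Aqp4*, *Gjb6*, *Gja1*, *Slc1a2*, *Agt*, *Mlc1*, *Aldh1l1*, *Aldoc*, *Glul*, *Clu*, *Apoe*, *S100b*, *Gfap*, *Ntsr2*, *Slc4a4* and *Sparcl1*) had a median of −0.59, and its 12 progenitor-leaning genes (*Nes*, *Vim*, *Sox2*, *Hes1*, *Hes5*, *Fabp7*, *Tnc*, *Ptprz1*, *Hopx*, *Id3*, *Id4* and *Ttyh1*) −0.087. With all 4 cKO mice, 12 of the 16 were below 0 and 4 above, and of the 12, 7 were below and 5 above. *Hes5*, *Id3*, *Hopx* (−1.02) and *Fabp7* (−0.80) are progenitor-leaning, and *Sparcl1* (0.53), *Slc1a2* (0.40) and *Slc4a4* (0.31) are maturing astrocyte genes. The remaining members are in neither list. No fit by age used offsets for GC content and length. The medians of the lists were −0.37 and 0.071 without B8, the second with the other sign, and −0.70 and −0.19 without B1. The counts rest on single libraries too, in fits that leave 1 mouse at one age, so that the spread comes from the 2 mice of the other age: without B8 edgeR called 1 higher and 4 lower (against 0.256% and 0.394% of all genes), without B7 0 and 1 (0.0173% and 0.147%), without B9 0 and 0 (0.00433% and 0.104%, with 8 of the 35 at an unadjusted p under 0.05, beside 5.33% of all genes), and without B1, which leaves B8 as the lone P4 mouse, 8 and 14 (17.6% and 15.5%).

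Each age of cKO was also set against the same 3 controls, which the comparisons share. With the P2 cKO mice, edgeR called 8 of the 35 higher, against 22.9% of 22227 genes tested, and 17 lower, against 24.0%, which is 48.6% of the 35. With the P4 cKO mice (B1 and B8), it called 0 higher, against 0.0%, and 0 lower, against 0.00476%, with 4 of the 35 at an unadjusted p under 0.05, beside 3.69% of all genes. *Hes5* was at −1.82 with P2 and −0.49 with P4 cKO mice, and *Apoe* at −1.39 and −0.28. *Slc4a4* was at 0.86 and 0.57, and *Ptprz1* at 1.02 and 0.55. *Gfap* changed sign, from −1.03 to 0.19. No control was at P2, so the P2 values hold age and genotype together, and they cannot be told apart.

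Other genes of the pathways behind these regulators were read from lists of related genes, all of them tested, and the most abundant of each is given by mean CPM. Over all 7 mice edgeR called 0 genes of each list in either direction (46 of 149 genes, 30.9%, had an unadjusted p under 0.05, beside 30.4% of all genes). DESeq2 called 16 higher and 2 lower, 10.7% and 1.34%, against 7.41% and 3.04% of all its genes. Without B8 the counts below stand against 23.7% higher and 23.1% lower of all genes tested, or 14.2% and 19.1% with offsets for GC content and length, and over all mice the median log2 fold change over all genes tested was 0.0025. Of 21 further Notch pathway genes, the median was 0.15 (0.10 without B8), DESeq2 called 4 and 0 (higher and lower), and without B8 edgeR called 6 higher and 6 lower (28.6% and 28.6%, with offsets 7 and 2). *Notch1* had 29.3, 24.1 and 30.6 CPM in controls A2, A4 and A6 and 64.4, 52.9, 32.0 and 62.9 CPM in cKO B1, B7, B8 and B9, with an edgeR log2 fold change of 0.92 (adjusted p = 0.138). For this receptor the libraries B1, B7 and B9 were above all others, while for the ligand *Dll3* (−0.90, adjusted p = 0.139) and the inhibitor *Numbl* (−0.34, adjusted p = 0.197), the most abundant of the list, the values lay below 0. The 21 genes of BMP, Id and STAT3 signalling had a median of 0.14 (0.12 without B8), 3 and 0 DESeq2 calls and, without B8, 9 higher and 2 lower (42.9% and 9.52%, with offsets 6 and 0). *Bmpr2* had 142, 116 and 128 CPM in controls A2, A4 and A6 and 231, 306, 125 and 278 CPM in cKO B1, B7, B8 and B9, with an edgeR log2 fold change of 0.87 (adjusted p = 0.138). This BMP receptor, the most abundant of the list, was highest in B7, and the cytokine receptor subunit *Il6st* (0.73, adjusted p = 0.138) was also above 0. Among 14 FGF receptors and targets, with a median of 0.036 (0.044 without B8), 0 and 0 DESeq2 calls and 3 higher and 4 lower without B8 (21.4% and 28.6%, with offsets 1 and 1), *Spred1* (0.50, adjusted p = 0.139) was the most abundant, and *Fgf17* (−0.87, adjusted p = 0.325) and *Etv4* (−0.53, adjusted p = 0.231) had the largest negative values.

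The 18 gliogenic transcription factors had a median of 0.0075 (0.0070 without B8), 2 and 0 DESeq2 calls and 5 higher and 2 lower without B8 (27.8% and 11.1%, with offsets 7 and 3), against 23.7% and 23.1% of all genes tested. *Nfib* (−0.17, adjusted p = 0.492) was the most abundant, and *Glis3* (1.06, adjusted p = 0.138) and *Gli3* (0.71, adjusted p = 0.148) were above 0. Of 55 further astrocyte genes, with a median of −0.068 (−0.15 without B8) and 4 and 1 DESeq2 calls, edgeR without B8 called 11 higher and 21 lower (20% and 38.2%, with offsets 7 and 15). The GABA transporter *Slc6a11* (0.23, adjusted p = 0.326) was the most abundant. *Mt3* had 62.8, 81.2 and 58.0 CPM in controls A2, A4 and A6 and 32.0, 18.7, 67.4 and 16.4 CPM in cKO B1, B7, B8 and B9, with an edgeR log2 fold change of −1.0 (adjusted p = 0.155). This metallothionein was low in B1, B7 and B9 and at the control level in B8, whereas the metalloproteinase inhibitor *Timp3* (1.17, adjusted p = 0.138) lay on the other side. The 20 further radial glia genes had a median of 0.12 (0.15 without B8), 3 and 1 DESeq2 calls and 7 higher and 1 lower without B8 (35% and 5%, with offsets 6 and 2), with *Sox11* (−0.054, adjusted p = 0.88) the most abundant and *Veph1* (1.24, adjusted p = 0.138) and *Metrn* (−1.0, adjusted p = 0.138) the most different.

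Markers of other cells in the tissue were summed in each library, each list being led by its most abundant gene by mean CPM. edgeR called 0 genes of each list over all 7 mice (24 of 115 genes tested, 20.9%, had an unadjusted p under 0.05, beside 30.4% of all genes). DESeq2 called 7 higher and 3 lower, 5.93% and 2.54%, against 7.41% and 3.04% of all its genes. The 7 were *Map2*, *Gad2*, *Mog*, *Pdgfra*, *Dnah11*, *Hydin* and *Mki67*, and the 3 were *C1qa*, *C1qb* and *Slc17a7*. The calls of edgeR without B8 stand against 23.7% higher and 23.1% lower of all genes tested, or 14.2% and 19.1% with offsets for GC content and length, and no listed marker was at 0 in every library. The 14 neuronal markers, led by *Stmn2* (−0.29, adjusted p = 0.151), had 9715, 10660 and 9411 CPM in controls A2, A4 and A6 and 8919, 9933, 9541 and 9209 CPM in cKO B1, B7, B8 and B9, with 5 of 14 above 0 (5 without B8) and a median log2 fold change of −0.11 (−0.24 without B8). *Map2* (0.81, adjusted p = 0.138) and *Gad2* (0.65, adjusted p = 0.138) had the largest differences, against the sign of most of the list. Without B8, 4 higher and 4 lower (with offsets 1 and 5) of them were called, and with offsets 2 rather than 5 of 14 were above 0. The 12 oligodendrocyte lineage markers, led by *Olig1* (−0.60, adjusted p = 0.18), had 548, 535 and 489 CPM in controls A2, A4 and A6 and 584, 438, 590.4 and 374 CPM in cKO B1, B7, B8 and B9, with the lowest sums at P2, 6 of 12 above 0 (5 without B8) and a median log2 fold change of −0.050 (−0.20 without B8). Among them *Mog* (0.89, adjusted p = 0.138) and *Pdgfra* (0.77, adjusted p = 0.138) were above 0, and 2 higher and 4 lower (with offsets 2 and 3) were called without B8. The 12 microglial markers, led by *Csf1r* (−0.20, adjusted p = 0.38), had 195, 229 and 299 CPM in controls A2, A4 and A6 and 169, 137, 210.3 and 159 CPM in cKO B1, B7, B8 and B9. B1, B7 and B9 were below all controls and B8 among them, with *C1qb* (−1.17, adjusted p = 0.138) and *C1qa* (−1.06, adjusted p = 0.138) the most different, DESeq2 calling 0 higher and 2 lower, and edgeR without B8 0 higher and 7 lower (with offsets 0 and 6). These were 0% and 58.3% of the list, which had 2 of 12 above 0 (3 without B8) and a median log2 fold change of −0.78 (−1.04 without B8). *Apoe*, which microglia also express, moved with them, and their part in its values was not tested.

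The 12 endothelial and pericyte markers, led by *Rgs5* (0.43, adjusted p = 0.142), had 279, 345 and 289.9 CPM in controls A2, A4 and A6 and 324, 339, 338 and 360.3 CPM in cKO B1, B7, B8 and B9, with 9 of 12 above 0 (9 without B8) and a median log2 fold change of 0.30 (0.31 without B8). The 2 with the largest absolute fold changes, *Cldn5* (−0.78, adjusted p = 0.173) and *Ly6c1* (−0.66, adjusted p = 0.235), lay below 0, against most of the list, with 5 higher and 1 lower (with offsets 1 and 1) called without B8. With the offsets and without B8, 6 of 12 were above 0 and the median was −0.029. The 10 ependymal markers, led by *Foxj1* (0.27, adjusted p = 0.471), had 59.3, 39.4 and 26.1 CPM in controls A2, A4 and A6 and 53.2, 53.8, 59.5 and 43.7 CPM in cKO B1, B7, B8 and B9, with 7 of 10 above 0 (5 without B8) and a median log2 fold change of 0.16 (−0.035 without B8), and the cilia genes *Dnah11* (1.67, adjusted p = 0.138) and *Hydin* (1.31, adjusted p = 0.138) were above 0, with 2 higher and 0 lower (with offsets 2 and 0) called without B8. The 10 choroid plexus markers, of which 9 were tested, had 118, 148 and 145 CPM in controls A2, A4 and A6 and 120.0, 133, 126 and 141 CPM in cKO B1, B7, B8 and B9, with 4 of 9 above 0 (3 without B8) and a median log2 fold change of −0.10 (−0.12 without B8). Most of this was *Otx2* (−0.10, adjusted p = 0.625), which the midbrain itself expresses, while *Ttr*, *Folr1* and *Aqp1* averaged under 1 CPM, *Kl* (0.53, adjusted p = 0.188) and *Kcnj13* (0.38, adjusted p = 0.479) were low, and 0 higher and 0 lower (with offsets 0 and 1) were called without B8. The 10 meningeal markers, led by *Ptgds* (−0.84, adjusted p = 0.23), had 874, 1682 and 1766 CPM in controls A2, A4 and A6 and 1275, 655, 1651 and 1187 CPM in cKO B1, B7, B8 and B9, with 4 of 10 above 0 (2 without B8) and a median log2 fold change of −0.11 (−0.25 without B8), *Col1a2* (0.40, adjusted p = 0.344) being among those above 0, and 0 higher and 1 lower (with offsets 0 and 1) called without B8. The 7 red blood cell genes, led by *Hbb-bs* (−1.13, adjusted p = 0.165), had 158, 499 and 133 CPM in controls A2, A4 and A6 and 182, 62.4, 180.2 and 58.5 CPM in cKO B1, B7, B8 and B9, with 1 of 7 above 0 (1 without B8) and a median log2 fold change of −1.13 (−1.40 without B8), *Hba-a1* (−1.43, adjusted p = 0.19) and *Hbb-bt* (−1.34, adjusted p = 0.176) also below 0 and 0 higher and 3 lower (with offsets 0 and 0) called without B8. Their sum was highest in A4 and lowest in the P2 libraries. With the offsets and without B8, the ependymal median was 0.20, with 6 of 10 above 0. The meningeal median was then −0.28, with 0 of 10 above 0.

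The 14 genes of dividing cells, which radial glia also express, had 157, 158 and 126 CPM in controls A2, A4 and A6 and 184, 150.1, 157 and 126 CPM in cKO B1, B7, B8 and B9, with 6 of 14 above 0 (4 without B8) and a median log2 fold change of −0.18 (−0.25 without B8), *Mcm6* (0.19, adjusted p = 0.413) the most abundant, *Mki67* (0.87, adjusted p = 0.138) and *Ccnb1* (−0.60, adjusted p = 0.327) the most different, and 1 higher and 3 lower (with offsets 0 and 4) called without B8. The 9 cortical and hippocampal genes, 8 of them tested, had 153, 188 and 164 CPM in controls A2, A4 and A6 and 152, 192, 144 and 191 CPM in cKO B1, B7, B8 and B9, with 3 of 8 above 0 (3 without B8) and a median log2 fold change of −0.33 (−0.068 without B8), the sums coming mostly from *Bcl11b* (0.13, adjusted p = 0.601). *Emx1*, *Tbr1* and *Fezf2* averaged under 1 CPM, and *Slc17a7* (−1.82, adjusted p = 0.138) and *Neurod2* (−0.55, adjusted p = 0.181) were highest in A4, with 0 higher and 1 lower (with offsets 0 and 1) called without B8. The 10 cerebellar genes, 8 tested, had 296, 342 and 286 CPM in controls A2, A4 and A6 and 295, 309.6, 274 and 374 CPM in cKO B1, B7, B8 and B9, led by *Zic1* (0.16, adjusted p = 0.555), with 5 of 8 above 0 (3 without B8) and a median log2 fold change of 0.083 (−0.050 without B8), *Barhl1* (−0.30, adjusted p = 0.245) and *Cbln3* (0.29, adjusted p = 0.461) the most different and 0 higher and 0 lower (with offsets 1 and 0) called without B8. *Pcp2*, *Atoh1*, *Pax2* and *Gabra6* averaged under 1 CPM, and the sums came mostly from *Zic1* (mean 147 CPM) and *Barhl1* (72 CPM). Whether any of the sum came from cerebellar tissue was not tested. With the offsets and without B8, 7 of the 8 cerebellar genes tested were above 0 and the median was 0.17.

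Promoters are shown for the genes that carry the core letters recognized by RBPJ, the DNA-binding partner of Notch. These letters were chosen since *Hes5* is a Notch target and had the lowest edgeR fold change of the 35 over all mice. *S100b* was lower than *Hes5* without B8 and with the offsets. RefSeq gives a start for 29 of the 35 genes, and GTGGGAA was searched on both strands in the 250 bases before each start (build GRCm38.p6). The 29 genes have 37 such starts, and the letters were in the window of 3 of the 37 (1 each of *Hes5*, *Aldoc* and *Tnc*), or 8.11%, and in 5.42% of all 32851 promoters. *Hes5* had 2 matches, 1 on each strand, and 0.161% of promoters had at least that many. *Hes5* and *Aldoc* had log2 fold changes below 0 and *Tnc* above 0. The matches are in capitals, each sequence is read 5′ to 3′ on the strand of the gene, and a match is a description of letters.
*Hes5* (chr4:154960673-154960922, + strand): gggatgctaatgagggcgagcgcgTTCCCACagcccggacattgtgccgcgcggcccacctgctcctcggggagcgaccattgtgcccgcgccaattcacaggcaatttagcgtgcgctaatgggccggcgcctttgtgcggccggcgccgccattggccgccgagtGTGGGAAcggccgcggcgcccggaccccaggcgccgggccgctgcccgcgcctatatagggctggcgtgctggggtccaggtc
*Aldoc* (chr11:78322823-78323072, + strand): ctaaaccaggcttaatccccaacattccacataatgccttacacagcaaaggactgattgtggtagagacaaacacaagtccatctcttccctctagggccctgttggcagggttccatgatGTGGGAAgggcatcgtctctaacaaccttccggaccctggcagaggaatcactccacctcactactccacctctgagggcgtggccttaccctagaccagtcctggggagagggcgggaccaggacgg
*Tnc* (chr4:64046937-64047186, − strand): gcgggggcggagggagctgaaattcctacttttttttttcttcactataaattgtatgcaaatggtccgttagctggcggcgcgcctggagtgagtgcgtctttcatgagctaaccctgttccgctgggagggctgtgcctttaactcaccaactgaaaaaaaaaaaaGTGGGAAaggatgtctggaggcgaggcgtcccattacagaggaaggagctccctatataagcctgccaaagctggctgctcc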

How the data were processed

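The 7 libraries came from dorsal midbrain RNA of 3 controls and 4 cKO mice. The authors aligned the reads to GRCm38.p5 with TopHat2 and Bowtie2 and deposited raw counts per gene from HTSeq, whole numbers without normalization. Rows that name no gene, 31.0% to 38.2% of counted reads, were left out of library sizes and tests. Symbols, exon lengths and GC content came from GENCODE vM21, a different release from the one the authors counted on, which matched 52489 of 52636 genes. Values per kb and by length thus rest on exons that may differ from those counted. The unused sample columns numbered 0.

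Counts were tested in R 4.3.3 with edgeR 4.0.16 (filterByExpr with a minimum count of 10 and total of 15, TMM, quasi-likelihood test, genotype as the only term, Benjamini-Hochberg adjustment over all genes tested, adjusted p under 0.05). CPM use TMM library sizes, and log2 CPM a prior count of 2. Alternatives were DESeq2 1.42.0, limma 3.58.1 (voom with quality weights), RLE factors, other filters, age as a covariate, subsets by age, offsets for GC content and exon length (mgcv 1.9.3), and leaving out each mouse. An adjusted p that DESeq2 gave as NA stayed NA and out of its counts of genes. DESeq2 and the offsets without B8 were added after seeing the data. The procedures were tested on simulated counts with a common spread for all genes. That simulation had no library set apart and no trend on length or GC content, so it does not bear on those features. Each mouse was 1 replicate. Chi-square per degree of freedom ran from 7.72 to 35.8 between control mice and from 27.7 to 70.1 among cKO mice B1, B7 and B9. Pairs of B8 with B1, B7 and B9 gave 77.5, 209 and 218. All of these values were above sampling noise, and their cause was not tested.

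The members and lists were chosen with earlier results of these data known. Named genes were all 35 members, *Pou4f2* and, from each list, the most abundant gene, any called gene and the 2 with the largest absolute log2 fold change among those with a mean of at least 1 CPM. *Pax7* and *Tfap2b* were chosen after their values were seen. Of the planned cell-type markers, 1 was left out of its list.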

Additional observations from a re-analysis of the deposited data

Results flagged for a closer look

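Within the 4 cKO mice, 2 of the 36 genes examined (the 35 and *Brn3b*) had 1 library far from the rest, where chance flags about 1 in 20 groups. For *Slc4a4*, B8 lay below the other cKO libraries, with a gap that was 0.916 of the whole range of log2 CPM. For *Gjb6*, B7 lay below the others, with a gap of 0.878 of the range.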

How the results depend on the processing

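*Brn3b* stayed lower in cKO under every alternative run, and its call was lost only with the P4 mice (log2 fold change −2.18, adjusted p = 0.192, the highest of a range from 3.98e-49), a fit of 2 against 2. Of the 35 genes, edgeR over all mice called 0 higher and 0 lower, and DESeq2 called 4 higher, against 7.41% of its genes. limma-voom (which gave B8 a weight of 0.167) called 8 higher and 13 lower, 22.9% and 37.1%, against 24.2% and 24.3% of all genes. The P2 cKO mice alone gave 8 and 17, 22.9% and 48.6%, against 22.9% and 24.0%. The next 2 choices were made after seeing the data. DESeq2 without B8 called 8 and 13, 22.9% and 37.1%, against 20.6% and 19.3%. Offsets without B8 gave 3 and 10, 8.57% and 28.6%, against 14.2% and 19.1%. Leaving out single mice gave 0 to 8 higher and 0 to 13 lower. Each of these counts was 0 except without B8, where 23.7% and 23.1% of all genes were called. Between P2 and P4 cKO mice, DESeq2 called 4 lower (against 1.49% of its genes) and edgeR without a filter 9 lower (2.28%), and leaving out single mice gave 0 to 8 higher and 0 to 14 lower, the most without B1 (against 17.6% and 15.5% of all genes). The genes with all cKO above all controls numbered 1 with offsets, against 4.85% of all genes, and 2 to 7 without single mice, against 6.73% to 28.2%, the most without B8. Those below numbered 4, against 10.4%, and 1 to 14, against 8.54% to 28.0%, again the most without B8. The median of the 35 was 0.044 with P4 mice only and −0.31 with the P2 cKO mice alone. For the related-gene lists together, edgeR called 0 of 149 genes. DESeq2 called 16 higher and 2 lower, 10.7% and 1.34%, against 7.41% and 3.04% of its genes. edgeR without B8 called 41 and 36 of the 149, beside 23.7% and 23.1% of all genes tested. The cause of these shifts was not tested.

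Of 665 alternative values for the 35 genes, 506 kept their sign and side of the threshold, 105 kept the sign and passed it, and 54, in 20 genes, changed sign. With GC content and length offsets, *Slc1a3* was at −0.18, *Gja1* at −0.21, *Sox2* at 0.091, *Hepacam* at 0.14, *Id4* at −0.13, *Ntsr2* at 0.0018 and *Ttyh1* at −0.0091. With these offsets and without B8, *Slc1a3* was at −0.22, *Gja1* at −0.38, *Sox2* at 0.13, *Hepacam* at 0.20, *Hes1* at 0.019, *Id4* at −0.14 and *Ttyh1* at −0.025. With P4 mice only (2 controls, 2 cKO), *Aldh1l1* was at 0.044, *Gfap* at 0.11, *Gjb6* at 0.22, *Clu* at 0.050, *Mlc1* at 0.033, *S100b* at 0.12, *Vim* at 0.13, *Hopx* at 0.20 and *Id4* at −0.11. With the P4 cKO mice alone, *Gfap* was at 0.19, *Gjb6* at 0.22, *Agt* at 0.036, *Mlc1* at 0.043, *S100b* at 0.0033, *Nes* at −0.020, *Hopx* at 0.12, *Id4* at −0.15 and *Ntsr2* at 0.014. With at least 10 counts in every library, *Gjb6* was at 0.0027. With age as a covariate, *Gjb6* was at 0.10 and *Id4* at −0.083. In that fit, without a change of sign, *Nes* was at 0.0745, *Tnc* at 0.30, *Mlc1* at −0.16, *Agt* at −0.13 and *Ntsr2* at −0.10, all nearer to 0. Others moved away from 0, such as *Aqp4* (0.52) and *Gja1* (0.29), and the median of the 35 was −0.094. With the P2 cKO mice alone, *Fgfr3* was at −0.10 and *Ttyh1* at −0.063. With limma-voom, *Ttyh1* was at −0.0022. With DESeq2 without B8, *Ttyh1* was at −0.0080. Without single mice, *Gfap* ran from −0.58 to 0.091, *Gjb6* from −0.24 to 0.22, *Sox2* from −0.059 to 0.0038, *Glul* from −0.10 to 0.018, *Hepacam* from −0.11 to 0.0020, *Vim* from −0.14 to 0.10, *Id4* from −0.021 to 0.13, *Fgfr3* from −0.037 to 0.16 and *Ttyh1* from −0.022 to 0.037. No paired analysis was possible because no label ties a control to a cKO mouse.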

Other observations

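The deepest libraries, B7 and B9, were also the P2 ones, and had the lowest share of reads aligned to more than 1 place (8.14% and 8.33%). This share was 9.76% in B1, below B8 and every control (10.6% to 11.1%). The part of depth and of this share in the P2 values, or in those of B1, was not tested. The engrailed gene *En1*, after which the Cre line is named and which was chosen after its values were seen, had 3.48, 3.05 and 3.32 CPM in controls A2, A4 and A6 and 2.78, 5.39, 12.3 and 7.78 CPM in cKO B1, B7, B8 and B9, the highest in B8.

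With 7 mice, 1 of 4 cKO libraries set apart and P2 only among the cKO mice, the tests over all mice had a wide spread for most of the 35 genes. Counts per gene do not separate isoforms or cell types, and exon lengths are those of all annotated exons joined, which can exceed the transcript expressed. The trend on GC content and length was fitted on the same libraries and can also take out differences of expression that run with length.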
